A study of Drosophila melanogaster with 18 samples.

Results

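Cytosolic ribosomal protein genes were followed along the passage series of a pair of Drosophila melanogaster cell lines, R3 and R7, on their way from early culture to established lines. A gene was included when the array's annotation, updated through its Entrez number, gave a probe set exactly 1 symbol that starts with RpL, RpS or RpLP and a digit, and its brightest probe set over the 18 arrays stood for it. This rule found 41 genes among the 11981 with a probe set of a single symbol: 21 named RpL, 16 named RpS and 4 named RpLP. These counts go by name and include the genes named "-like". Of the 92 genes in the RefSeq table that match the same name pattern, the other 51 were not analysed here.

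The cytosolic ribosome is built from ribosomal RNA and a fixed set of proteins, which are needed in matched amounts, and their messages are among the most abundant of a growing cell. In Drosophila, loss of a single copy of many of these genes slows growth and gives the Minute phenotype. Several of the proteins have a paralogue, and some paralogues are known for expression in the fly germline, RpS5b and RpS19b in the ovary and RpL22-like in the testis among them. Other genes named "-like" encode relatives that, as known from yeast, act in ribosome assembly and are not parts of the finished ribosome.

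Total RNA was measured on Affymetrix expression arrays, 9 for each line, and each value is an intensity as the authors deposited it. R3 had 2 early arrays (P2 in 2 replicates), 4 intermediate arrays (P5, P6, P7, P8) and 3 late arrays (P16, P17, P19). R7 had 3 early arrays (P2 in 2 replicates and P3), 2 intermediate arrays (P7, P8) and 3 late arrays (P16, P17, P19), with P4 set apart because the labelled early and intermediate ranges both hold it. The labels give no genotype, tissue or sex, and no group is an untreated control of another. Both lines were grown in Schneider's medium with 10% serum. Arrays of a stage are samples of the same line, mostly at different passages, so p-values measure the spread between these arrays and not between independent cultures.

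On R3 P19, values stood apart from the other R3 late arrays. The 2 R3 P2 arrays differed from each other, and replicate 2 was nearer the R3 intermediate arrays, as for RpS5b. R3 P19 and replicate 2 of R3 P2 are called the R3 pair. Results that use R3 arrays are given with all arrays and, where the R3 pair moves them, also without it. Array medians lay between 23.1 and 30.2. The ratio of the control probe sets at the ends of GAPDH lay between 1.14 and 1.35, and that of actin between 1.64 and 2.29. In bulk RNA, fewer cells of a type and less RNA per cell cannot be told apart. Differences were tested with limma on log2 intensity, with values below 32 set to 32, over 10200 probe sets above that floor on at least 2 arrays. A gene was called at a Benjamini-Hochberg adjusted p under 0.05, and 37 of the 41 genes were tested.

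Most ribosomal protein genes were among the brightest signals on the arrays. For 29 of the 41 genes the median intensity over the 18 arrays lay above 5000, from 6452 for RpL17 to 14018 for RpL41, which encodes a very short peptide of the large subunit. RpL41 was the brightest non-control probe set on 18 of 18 arrays, and 28 of the 41 genes were among the 100 brightest probe sets. Together, the 41 probe sets carried between 4.89% and 5.30% of the summed intensity of an array. A further 8 tested genes lay lower: RpL34a, RpL24-like, RpS5b, RpL7-like, RpLP0-like, RpS19b, RpS10a and RpL37-2. The remaining 4 (RpL10Aa, RpL22-like, RpS28a and RpS28-like) lay below the floor on all 18 arrays.

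**Figure D1:**
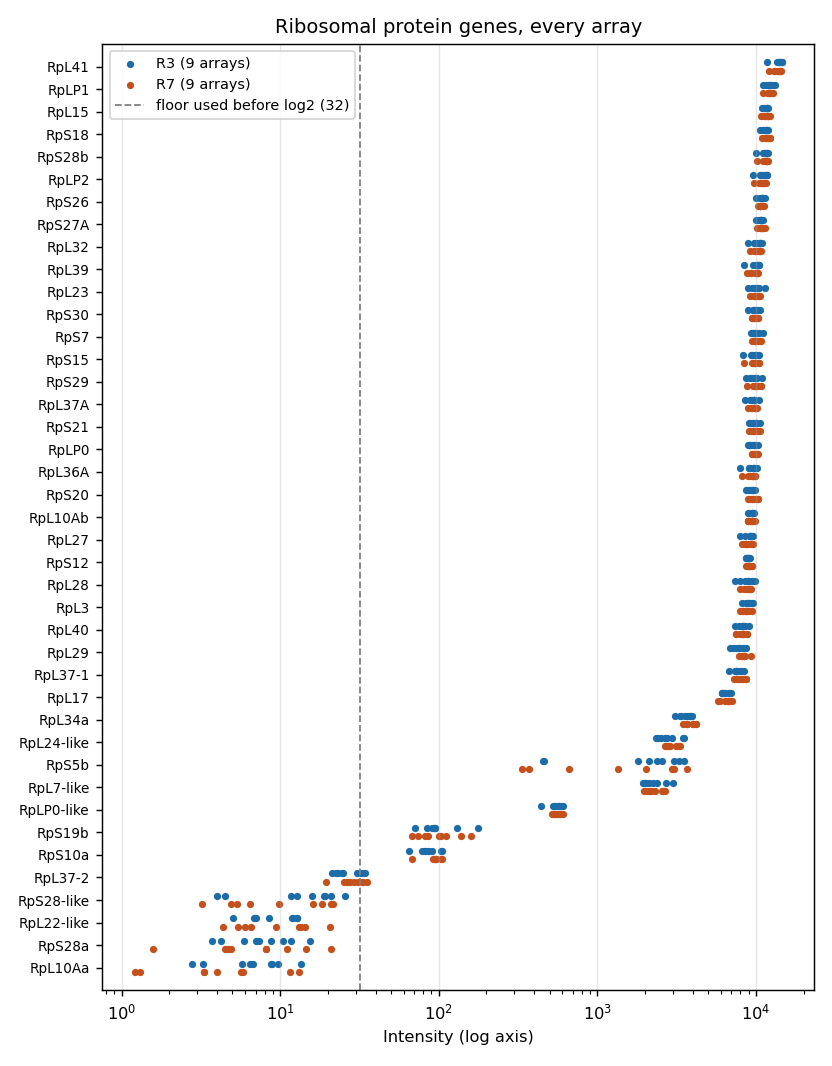
Intensity of the 41 ribosomal protein genes on every array, on a log axis, with 9 arrays for R3 and 9 for R7 and the floor of 32 marked. The 29 brightest genes form a narrow band above 5000, RpS5b spreads from 334 to 3686, and 4 genes lie below the floor on every array.

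The 29 bright genes varied little along both series. RpL41 had 14153 and 14634 in the R3 early arrays, 13495, 13953, 14558 and 14328 in the R3 intermediate arrays, and 13897, 13901 and 11772 in the R3 late ones. In R7 it had 14163, 13008 and 12083 early, 13141 at P4, 14358 and 14212 at the intermediate stage and 13829, 14155 and 14082 late. Its lowest values were those of R3 P19 and R7 P3, and the R7 early and late arrays overlapped.

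Across the 29 genes, the highest array exceeded the lowest by 1.10-fold to 1.36-fold, with a median of 1.21-fold. The SD over the 18 arrays had a median of 0.0756 on the log2 scale. The 86 other probe sets of the same brightness had a median SD of 0.0809, and all tested probe sets 0.200. Other bright probe sets were thus about as narrow, and the part of saturation in this was not tested.

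RpS5b, a paralogue of the small subunit protein gene RpS5a, had the widest range of the tested genes, 11.0-fold from lowest to highest array. In R7 it had 370.2, 334 and 659 in the early arrays (P2, P2 and P3), 2033 at P4 and 2997 and 3686 at P7 and P8. The late arrays had 1353, 3068 and 2947 at P16, P17 and P19. All 3 late arrays lay above all 3 early ones.

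RpS5b (Entrez gene 41807, chromosome arm 3R) rose in R7 from 455 ± 178 (SD, n = 3) early to 2456 ± 957 (SD, n = 3) late, 5.31-fold (log2 2.41 ± 0.73 SE, limma adjusted p = 0.0357). It was the 1 ribosomal protein gene called, as higher, of 37 tested, where 19.9% of all tested probe sets were called and 8.75% were called higher. The call was lost when leaving out replicate 1 of R7 P2 (adjusted p = 0.101), its replicate 2 (0.117), R7 P17 (0.0978) or R7 P19 (0.113). Counting P4 as early lost it too (0.114). The log2 difference lay between 1.85 and 2.79 under the 30 alternatives, and the adjusted p between 0.000443 and 0.117.

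At the R7 intermediate stage RpS5b had 3341 ± 488 (SD, n = 2), 7.66-fold above the early arrays (log2 2.94 ± 0.82 SE, limma adjusted p = 0.0816), and was not called. It was called when leaving out replicate 1 of R3 P2 (adjusted p = 0.0433), its replicate 2 (0.0433), or R3 P19 (0.0146), which leave the difference as it is and change the spread that all groups share. It was also called when leaving out R7 P3 (0.0490), which took the log2 difference to 3.24. With P4 counted as intermediate it was called too (0.0495). In this comparison 0 of 37 ribosomal protein genes were called by limma, 1 had an unadjusted p under 0.05, and 2.48% of all tested probe sets were called. Without the R3 pair 1 of 37 was called, RpS5b, against 11.1%. Apart from RpS5b, the largest differences were -0.52 for RpS19b, -0.27 for RpL24-like, -0.26 for RpL7-like, 0.18 for RpS10a and 0.13 for RpL39 (log2).

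In R3 the RpS5b values did not order by stage. The P2 arrays had 462 and 2562 (replicates 1 and 2), the intermediate arrays 1814, 2131, 2381 and 3255, and the late arrays 3505, 3029.8 and 454. Replicate 2 of P2 thus lay among the intermediate arrays, and P19 lay next to replicate 1 of P2.

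With all arrays, RpS5b was not called between R3 late and early (log2 0.64 ± 0.82 SE, limma adjusted p = 0.975). Of the 37 genes 0 were called, 0 had an unadjusted p under 0.05, and 0% of all tested probe sets were called (613 of 10200 had an unadjusted p under 0.05). The largest other differences were -0.16 for RpL24-like, -0.13 for RpL41, -0.12 for RpL39 and 0.18 for RpLP0-like (log2).

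Leaving out the R3 pair left R3 early as 1 array, assumed to vary like the other groups. RpS5b then rose 7.05-fold in R3, from 462 to 3268 ± 336 (SD, n = 2, log2 2.82 ± 0.51 SE, limma adjusted p = 0.00602). In that fit 3 of 37 genes were called, and 10.1% of all tested probe sets. This pair was picked from its values, so the fit without it is not independent support.

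**Figure D2:**
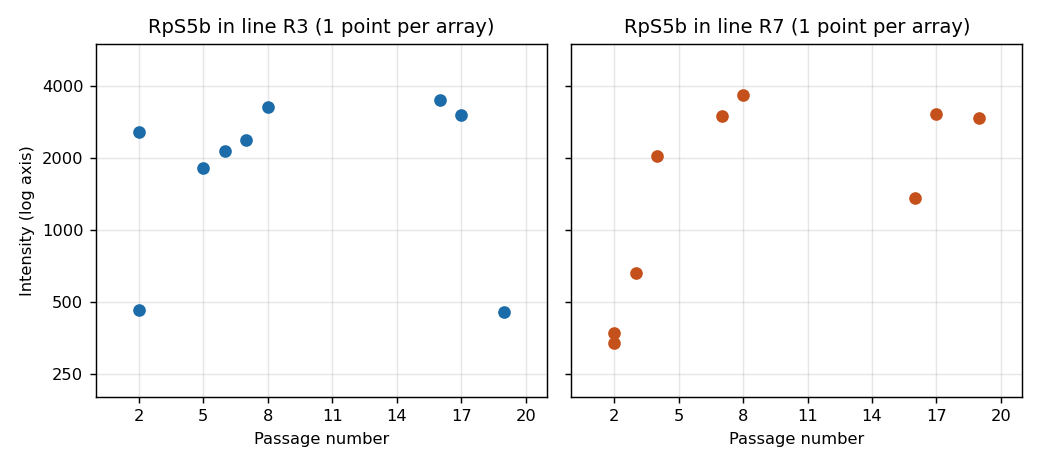
RpS5b intensity against passage number in R3 and R7, 1 point per array, on a log intensity axis. R7 goes from 370.2 and 334 at P2 to 3686 at P8, while R3 has a low and a high P2 array and a low P19 array at 454.

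The change of RpS5b from early to late was not shown to differ between the lines. The interaction was 1.77 ± 1.10 SE (log2, limma adjusted p = 0.442) with all arrays and -0.41 ± 0.61 SE (adjusted p = 0.786) without the R3 pair. For the interaction limma called 0 of 37 ribosomal protein genes, 0 had an unadjusted p under 0.05, and 2.91% of all tested probe sets were called. RpS19b was lowest at -0.64 (log2), and was called at -1.30 without replicate 1 of R3 P2 (adjusted p = 0.0436). In the fit leaving out the R3 pair it had the opposite sign, 0.18 (adjusted p = 0.823). RpL7-like followed at -0.31 and RpLP0-like at -0.18, and RpL41 (0.23) and RpL39 (0.22) came after RpS5b at the upper end. Without the pair, limma called 0 of 37, 1 had an unadjusted p under 0.05, and 4.08% of all tested probe sets were called.

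Germline markers were set beside RpS5b because of its known expression in the ovary. Of 11 listed genes 10 were measured, and vas and otu lay below the floor on all 18 arrays. On R7 arrays their summed intensity was 962 to 1147 at the early, 621 to 813 at the intermediate and 1112 to 1319 at the late stage. In R3 it was 847 to 1608, 641 to 788 and 779 to 1433.

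orb, which encodes a translational regulator of oocytes, rose 13.7-fold in R7 (limma adjusted p = 6.4e-06), and its R3 values lay between 20.9 and 83.4. ovo, a germline transcription factor gene, had 50.8, 44.6 and 28.6 in R7 early and 101, 323 and 232 in R7 late arrays (adjusted p = 0.0458), a call lost in 13 of 30 alternatives, 11 of them with a single array left out (adjusted p from 0.0511 without replicate 1 of R3 P2 to 0.139 without R7 P17). piwi, which encodes a piRNA-binding protein, had 738, 644 and 561 in R7 early and 102, 106 and 98.0 in R7 late arrays (adjusted p = 0.0266), a call lost in 6 of 30, among them without either R7 P2 array (0.0777 and 0.0768), P16 (0.0667), P17 (0.0601) or P19 (0.0786). In R3, piwi had 1299 and 1108 in replicate 1 of P2 and in P19, and between 123 and 166 on the others. The 5 arrays with the lowest RpS5b were thus the 5 with the highest piwi. They were also the 5 highest for Him, insc and Pxn, listed here as adult muscle precursor, neuroblast and haemocyte markers. The match was thus not particular to germline genes, and not every listed marker of any of these types shared it. The part of germline genes or cells in the RpS5b values was not tested.

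RpS19b, the paralogue of the small subunit gene RpS19a, did not share the direction of RpS5b in R7. It had 161, 138 and 100.4 in R7 early arrays, 103 at P4, 112 and 74.2 at the intermediate stage and 68.1, 82.4 and 85.0 late. No late array reached an early one, and the log2 difference was -0.74 ± 0.28 SE (limma adjusted p = 0.0847). It was called when leaving out replicate 1 of R3 P2 (adjusted p = 0.0198), its replicate 2 (0.0199) or the R3 pair (0.00983). With the compared R7 arrays only it was called too (0.0415). In R3 it had 177 and 70.9 early, 94.4 and 84.8, then 94.99 and 91.2 intermediate, and 93.9, 93.2 and 131 late.

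RpS10a, the paralogue of RpS10b, had 85.5 ± 15.6 (SD, n = 3) in R7 early and 97.2 ± 6.48 (SD, n = 3) in R7 late arrays, and over the series lay between 64.7 and 104. Its difference was 0.20 ± 0.17 SE (log2, limma adjusted p = 0.437), and it was called when arrays were given equal medians (0.0497). The array medians all lay below the floor, so that scaling rests on weak signals. RpL22-like lay between 4.37 and 20.7, so no change could be given. RpS5a, RpS10b, RpS19a and RpL22 were not analysed here, and the balance of these paralogues could not be given.

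For RpL10A, RpS28 and RpL37, 1 gene was bright and its measured paralogues lay near or below the floor. RpL10Ab had 9322 ± 509 (SD, n = 3) in R7 early and 9207 ± 262 (SD, n = 3) in R7 late arrays, while RpL10Aa reached at most 13.6. RpS28b had 11144 ± 933 (SD, n = 3) and 11686 ± 107 (SD, n = 3), while RpS28a and RpS28-like reached at most 20.8 and 25.5. RpL37-1 had 7893 ± 619 (SD, n = 3) and 8376 ± 298 (SD, n = 3), while RpL37-2 lay between 19.4 and 35.5. Different probes measured them, so no ratio between paralogues is given. RpL34a had 3959.6 ± 244 (SD, n = 3) and 3958 ± 253 (SD, n = 3), a log2 difference of 0 ± 0.10 SE.

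**Figure D3:**
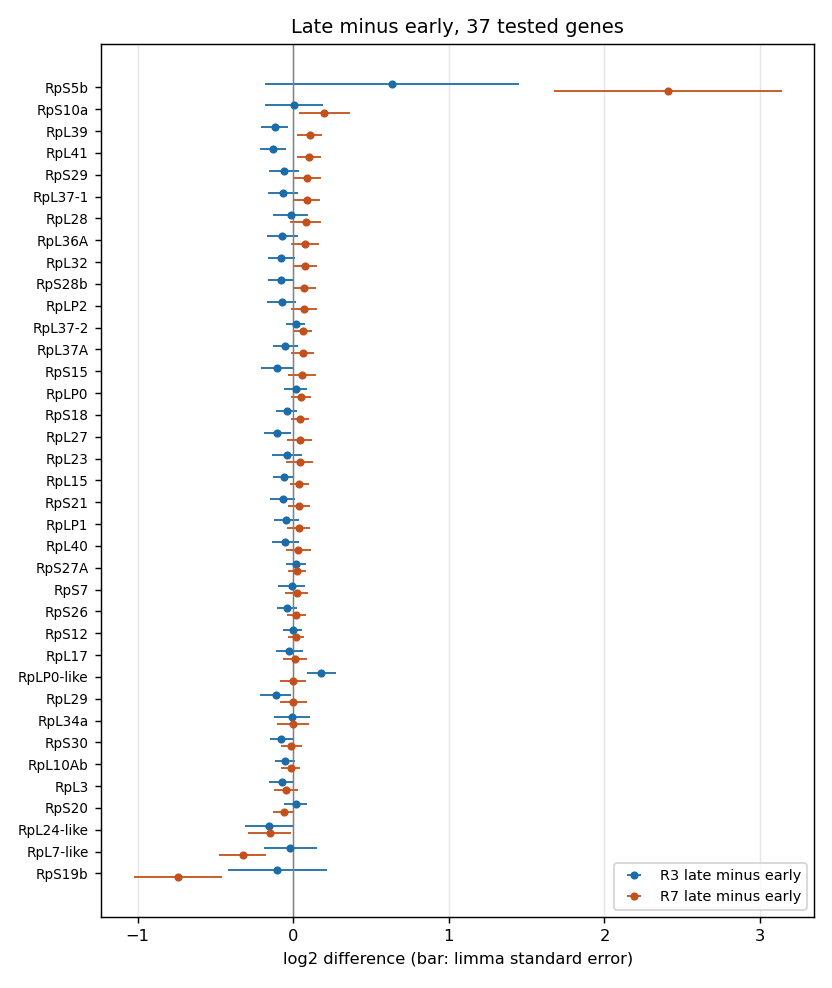
Late minus early differences (log2) of the 37 tested genes in R3 and R7, with bars for the limma standard error. RpS5b lies at 2.41 and RpS19b at -0.74 in R7, and the 29 bright genes lie between -0.06 and 0.11.

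Of the assembly-factor relatives, RpL24-like and RpL7-like had their R7 late values below the early ones. RpL24-like, whose yeast counterpart sits on the precursor of the large subunit, had 3301, 3268 and 3205 in R7 early arrays and 3127, 2871 and 2813 in R7 late arrays. RpL7-like, whose yeast counterpart acts in making large subunit RNA, had 2589, 2689 and 2563 early and 2108, 2179 and 1974 late. For both genes each early array lay above each late one. Groups did not overlap for 4 of the 37 genes (these 2, RpS19b and RpS5b), against 41.6% of all tested probe sets.

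With all arrays neither was called in R7. The log2 difference was -0.33 ± 0.15 SE for RpL7-like (limma adjusted p = 0.155) and -0.15 ± 0.14 SE for RpL24-like (0.483). RpL7-like was called without R3 P19 (adjusted p = 0.0428) and with the compared R7 arrays only (0.0350). In R3 with all arrays the differences were -0.02 for RpL7-like and -0.16 for RpL24-like (log2), neither of them called. The R3 pair was picked from its values, and leaving it out leaves 1 R3 early array. The R3 falls of the fit without it are thus not independent support. There RpL7-like fell 1.25-fold in R7 (0.0100) and 1.36-fold in R3, and RpL24-like fell 1.42-fold in R3. In that fit 3 of 37 genes were called in R7 (RpS5b, RpS19b and RpL7-like), against 29.7% of all tested probe sets.

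In R3 the same arrays stood out as for RpS5b, in the opposite sense. RpL7-like had 2708 and 1986 in the P2 arrays, 2119, 2233, 1938 and 2371 at the intermediate stage and 2002, 1990.1 and 3015 late. RpL24-like had 3482 and 2742, then 2723, 2956, 2339 and 2658, then 2400, 2507 and 3547. RpLP0-like, whose yeast counterpart is an assembly factor related to the stalk protein P0, had 559.9 ± 23.6 (SD, n = 3) in R7 early and 561 ± 39.0 (SD, n = 3) in R7 late arrays, and lay between 445 and 609.5 over the series.

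**Figure D4:**
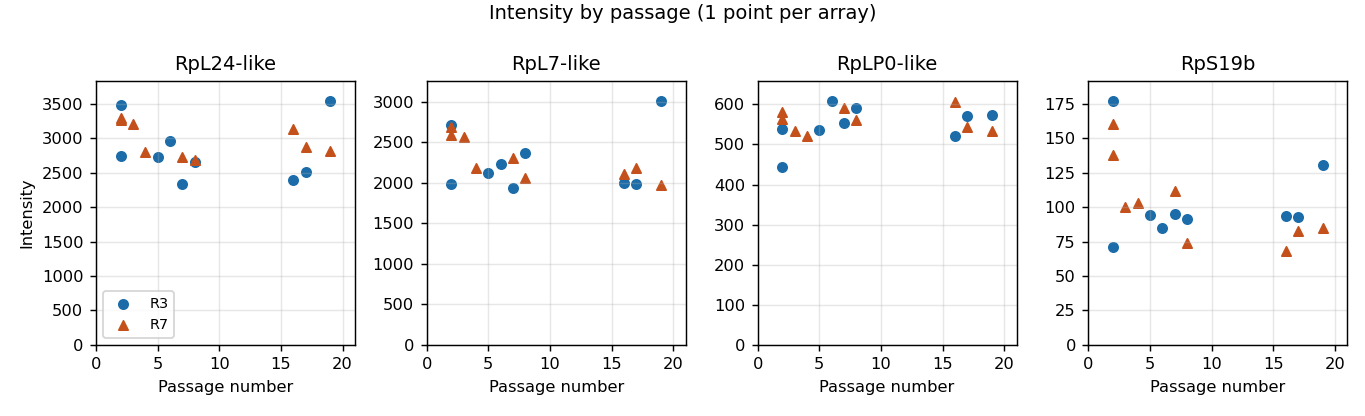
Intensity against passage number for RpL24-like, RpL7-like, RpLP0-like and RpS19b in R3 and R7, 1 point per array, with axes from 0. R3 P19 has the highest value of RpL24-like (3547) and of RpL7-like (3015).

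Among the 29 bright genes limma called 0 between R7 late and early, and the smallest unadjusted p was 0.198. Their differences ran from -0.06 (log2, RpS20, a small subunit protein) to 0.11 (RpL39, a large subunit protein). The widest 95% confidence bounds over the 29 genes were -0.21 and 0.30, 1.15-fold lower and 1.23-fold higher. In R3 the differences ran from -0.13 (RpL41) to 0.02 (RpS27A), with widest bounds of -0.32 and 0.22, and limma called 0, with a smallest unadjusted p of 0.148. Without the R3 pair RpL41 had -0.03, and the 29 differences ran from -0.25 (RpL29) to 0.14 (RpL28), with widest bounds of -0.52 and 0.39, again with 0 called by limma and a smallest unadjusted p of 0.0647. Of the 86 other probe sets of this brightness, 3 were called in R7 and 0 in R3.

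RpLP0, RpLP1 and RpLP2 encode the stalk of the large subunit, which recruits translation factors. RpLP0 had 9796 ± 395 (SD, n = 3) in R7 early and 10144 ± 269.8 (SD, n = 3) in R7 late arrays. RpLP1 had 11892 ± 846 and 12163 ± 138, and RpLP2 had 10486 ± 779 and 10979 ± 129. RpS27A and RpL40 are each made as a fusion to ubiquitin. RpS27A had 10686 ± 511 and 10870.4 ± 191, and RpL40 had 8095 ± 703 and 8265 ± 96.7. The groups of these 5 genes overlapped, and over the 8 comparisons with all arrays the smallest limma adjusted p of a bright gene was 0.317.

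After subtracting each array's median of the 29 bright genes, the SD over the arrays ran from 0.0224 for RpLP1 to 0.100 for RpL29 (log2). RpL29, a large subunit protein gene, had 8626 and 7529 in the R3 early arrays, 8241, 8529, 7967 and 7157 intermediate and 6836, 7688 and 7873 late. In R7 it lay between 7792 and 9299. RpL37-1 came next at 0.0670.

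The remaining comparisons called no ribosomal protein gene. From R7 intermediate to late, limma called 0 of 37, with 0 at an unadjusted p under 0.05, against 4.68% of all tested probe sets. RpS5b differed by -0.53 (log2), RpS19b by -0.22, RpS20 by -0.11 and RpL24-like by 0.12. For R7 against R3, limma called 0 of 37 at the early, intermediate and late stage, with 0 at an unadjusted p under 0.05 at each, where 1.07%, 1.88% and 7.63% of all tested probe sets were called.

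RpS5b differed between R7 and R3 by -1.33, 0.51 and 0.45 (log2) at these stages (limma adjusted p = 0.650, 0.985 and 0.804). Without the R3 pair they were -0.09, 0.51 and -0.50, so the late difference changed sign. At the early stage RpS19b had 0.22 with all arrays and -0.44 without the pair, RpLP0-like 0.19 and 0.06, and RpL7-like 0.17 and -0.05. RpL39 had -0.15 and -0.16, and RpL41 -0.14 and -0.12. At the intermediate stage, which holds no array of the pair, RpS10a (0.22) and RpL29 (0.13) followed RpS5b, and RpL3 (-0.04) was lowest. At the late stage RpS19b had -0.42 with all arrays and -0.26 without the pair, RpL7-like -0.14 and 0.06, RpL37-1 0.16 and 0.15, and RpL29 0.15 and 0.19. Without the pair limma called 0 of 37 early and late, with 0 and 1 at an unadjusted p under 0.05, against 1.69% and 11.2% of all tested probe sets. None of these differences was called.

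The level of the group as a whole depended on how the arrays were scaled, so no direction is given for it. As deposited, the median of the 37 genes in R7 late minus early was 0.04 (log2), against -0.03 over all tested probe sets. It was 0.28 with equal array medians, which moved the median of all probe sets to 0.15, and -0.02 when arrays were centred on 1228 bright non-member probe sets. The array medians all lay below the floor of 32, so equal array medians match the arrays on weak signals. In R3 the median of the 37 genes as deposited was -0.05, against -0.02 over all tested probe sets.

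Per array, the median of the 37 genes relative to the mean of the arrays was lowest on R3 P19 (-0.15, log2) and highest on R3 P17 (0.10). This range of 0.25 became 0.14 after centring on bright non-member probe sets and 0.04 after quantile normalization, which gives every array the same distribution of values. R3 P19 and R7 P3, the lowest arrays, had array medians of 29.6 and 30.2, the highest of the 18. Over 18 arrays that share lines and scaling, array median and member median had a correlation of -0.59 (Pearson) and -0.42 (Spearman), given as a description. The part of array quality in these values was not tested.

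**Figure D5:**
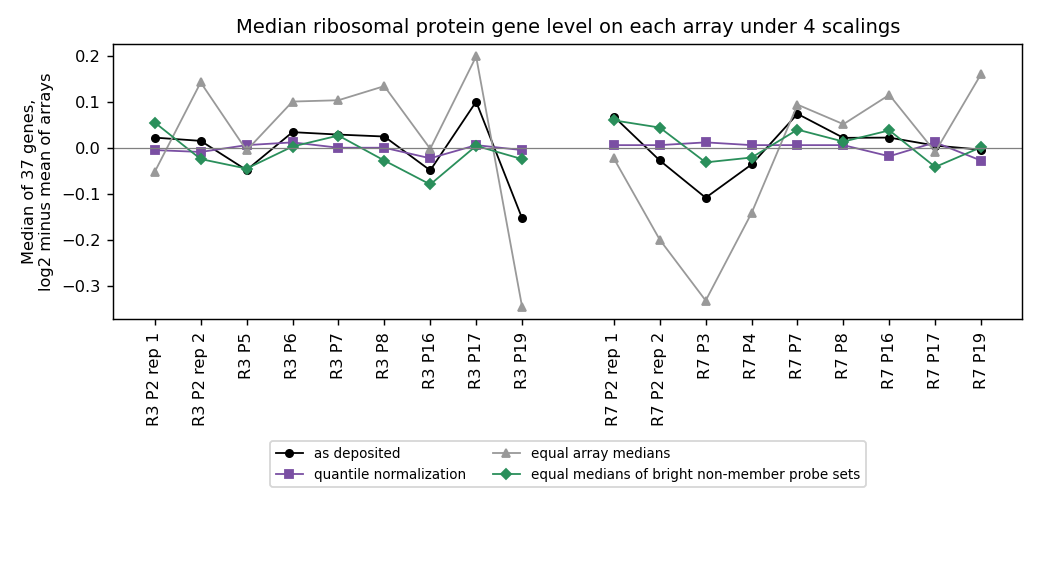
Median log2 level of the 37 tested genes on each array, relative to the mean of the 18 arrays, under 4 scalings between arrays. As deposited the values lie between -0.15 and 0.10, and with equal array medians R3 P19 lies at -0.34.

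Other parts of the translation machinery were described from lists of genes chosen with earlier results of these data known. Their counts in R7 late against early stand beside 19.9% of all tested probe sets called, with 8.75% of all called higher. In this comparison 2 of 22 tested initiation factor genes rose and 4 fell, against 19.9% of all tested probe sets. eIF5B, which joins the subunits, went from 1011 ± 55.3 (SD, n = 3) to 1785 ± 164 (n = 3), a rise of 1.76-fold (limma adjusted p = 0.00390). eIF4B, a cofactor of the helicase eIF4A, rose 1.74-fold (0.00475). The genes of 2 eIF3 subunits, eIF3c and eIF3g1, fell 1.24-fold (0.00935) and 1.20-fold (0.0118). Both of these calls were lost with equal array medians (0.688 and 0.867), and that of eIF3g1 without R7 P19 (0.0544). With the compared arrays only, 2 rose and 0 fell. Without the R3 pair, more initiation factor genes were called lower. The list's median was -0.15 (log2), against -0.03 over all tested probe sets.

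Of 6 tested elongation and termination genes 1 fell, against 19.9% of all tested probe sets. eEF1alpha2, a gene for the factor that brings aminoacyl-tRNA to the ribosome, went from 769.8 ± 162 to 287 ± 59.2 (SD, n = 3 each), 2.68-fold lower (limma adjusted p = 0.0355). The call was lost without any 1 of the R7 early arrays (0.0715, 0.0779 and 0.0989 for P2, P2 and P3) or late arrays (0.111, 0.0689 and 0.0705 for P16, P17 and P19). The list's median was -0.05. Rack1, a scaffold protein bound to the small subunit, had 8593 ± 713 early and 8144 ± 304 late (adjusted p = 0.515).

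Of 41 tested ribosome biogenesis genes, 2 rose and 3 fell in R7, against 19.9% of all tested probe sets and with a median of -0.08. NHP2, of the particles that guide pseudouridine formation, rose 1.27-fold (limma adjusted p = 0.00464), and the exosome subunit gene Rrp46 rose 1.34-fold (0.0115). Non1, a GTPase of large subunit assembly, fell 1.40-fold (0.00508), and Rrp4, an exosome subunit gene, fell 1.40-fold (0.0286). The Rrp46 call was lost without R7 P19 (0.0538). The Rrp4 call was lost when leaving out replicate 1 of R7 P2 (0.0961), its replicate 2 (0.101), R7 P17 (0.0823) or R7 P19 (0.0856), with quantile normalization (0.0540), with equal array medians (0.167, log2 -0.24) and with no filter on low values (0.0682). The count of 5 became 8 without R3 P19, 3 without replicate 2 of R7 P2 and 2 without R7 P19. With equal array medians 7 rose and 1 fell, and with quantile normalization 6 rose and 2 fell. The count was also larger without the R3 pair.

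Of 10 tested regulators of growth and of ribosome stress, 2 rose and 0 fell in R7, a share like the 19.9% of all tested probe sets, with a median of 0.12. M1BP, a factor that binds a core promoter motif found at ribosomal protein genes among others, went from 444 ± 9.33 (SD, n = 3) to 733 ± 43.0 (n = 3), a rise of 1.65-fold (limma adjusted p = 0.000343). In R3 it had 455 ± 56.9 early and 464 ± 67.4 late, and the interaction with line was called with all arrays (log2 0.70 ± 0.14 SE, adjusted p = 0.0181). Without the R3 pair the R3 difference was 0.24 (adjusted p = 0.197) and the interaction was no longer called (0.48 ± 0.13 SE, adjusted p = 0.0661). S6k, the kinase of the small subunit protein RpS6, rose 1.41-fold in R7 (0.00150). larp and Max were not called (0.117 and 0.261). The rises of M1BP and S6k in R7 were called under each of the 30 alternatives run. In R3 late against early with all arrays no probe set of the whole table was called, so these lists cannot be compared between the lines from it. Without the R3 pair, where 10.1% of all tested probe sets were called, 2 of 41 biogenesis genes fell, Non1 (log2 -0.49, limma adjusted p = 0.0167) and Nnp-1 (-0.44, 0.0414), the latter named after its value was seen. No gene of the initiation, elongation and growth lists was called in that fit.

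Marker lists of other cell types were summed on the same arrays. The summed intensity of 9 haemocyte markers on R7 arrays was 4776 to 12706 at the early and 2294 to 4112 at the late stage. For 6 neuroblast markers it was 501 to 696 and 124 to 158, for 6 adult muscle precursor markers 5098 to 6036 and 5809.9 to 7241, and for 11 testis markers 495 to 559 and 615 to 734. The early and late ranges overlapped for the adult muscle precursor markers and not for the others. The neuroblast sum at the R7 intermediate stage was 416 to 506, and most of it was grh, with 369 at P7 and 270 at P8. There insc had 93.4 and 95.4, and wor, ase, pros and dpn lay below the floor. Only 5 of the testis markers lay above the floor on at least 2 arrays. In R7 late against early, 1 of these was called higher, topi. Of the adult muscle precursor markers twi was called higher (log2 0.93) and Him lower (-3.19, a call lost in 7 of 30 alternatives). In that comparison limma called 5 of 9 haemocyte and 6 of 6 neuroblast markers lower and 0 higher, against 19.9% of all tested probe sets. Of the neuroblast markers, wor, pros and dpn lay above the floor only on the 3 R7 early arrays. They were tested only through that group and could not have been called higher, so their calls are no support. The part of a change in cell types in the values of the ribosomal protein genes was not tested.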

How the data were processed

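The authors deposited 1 intensity per probe set and array on a linear scale, from biotin-labelled cRNA on Affymetrix arrays, per the labels' protocols. How probe sets were summarised and scaled between arrays is not given in the sources used here. There were 18952 probe sets, 183 of them controls, with values from 0.820 to 14634. The number of arrays sets the precision.

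Gene names came from the platform annotation and were updated through Entrez numbers with RefSeq. No build is given for the arrays, so no coordinates are printed. Of the 41 probe sets, 14 carry the suffix s, which marks probes shared between transcripts, so signal of near-identical copies cannot be separated there.

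Values below 32 were set to 32 before log2. limma 3.58.1 in R 4.3.3 was fitted to all 18 arrays in 7 groups, with 11 residual degrees of freedom and Benjamini-Hochberg adjustment over 10200 probe sets. Folds are on this floored log2 scale. The fit was also run on simulated arrays with independent noise and planted changes, which cannot check the calls made on these arrays. Alternatives changed the scaling, floor, filter, prior, probe set choice, the stage of P4 and the arrays used. Members, lists and the rule for named genes were chosen with earlier results of these data known. The rule named called genes or else the 3 largest differences in each direction, every paralogue, the stalk and ubiquitin fusion genes, and up to 4 genes per list with the smallest adjusted p. Cell type markers are given mainly as summed values.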

Additional observations from a re-analysis of the deposited data

Results flagged for a closer look

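R7 P4 entered none of the comparisons, and RpS5b had an intensity of 2033 there, above the 370.2, 334 and 659 of the R7 early arrays. Further probe sets of 3 genes also lay above the floor on all 18 arrays and entered no count. That of RpL3 had a median of 429, with 913 on replicate 1 of R3 P2, 935 on R3 P19 and at most 518 on the others, while the brightest RpL3 probe set lay between 7960.2 and 9573. The further probe set of RpS29 had a median of 9511, and that of RpS30 had a median of 69.5. For RpS29 it had 9399, 8748 and 8229 in R7 early and 9979, 9954 and 9719 in R7 late arrays. For RpL3 it had 451, 518 and 491 early and 346, 328 and 299 late. The R7 early and late groups thus did not overlap for these sets, while they did for the brightest sets of both genes and for the further RpS30 set. Groups did not overlap for 41.6% of all tested probe sets.

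Among the 4 R3 intermediate arrays, P5 lay far below the other 3 for RpL36A (its gap to the nearest array was 0.906 of the whole range), RpL37A (0.914) and RpLP2 (0.841), and P7 lay far above the other 3 for RpL37-1 (0.843). These gaps are above the 95% critical value for 4 values, 37 genes were looked at, and chance flags about 1 in 20 such groups. The genes share arrays, so the flags are not independent of each other. As deposited, the median of the 37 genes was itself lower on P5 (-0.05, log2) than on P6, P7 and P8 (0.03 on each).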

How the results depend on the processing

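With limma, 1 ribosomal protein gene was called in R7 late against early. This count was 2 with equal array medians, 3 with the compared arrays only, 3 without the R3 pair (replicate 2 of P2, and P19), 0 with no filter on low values (RpS5b adjusted p = 0.0970) and 0 with P4 counted as early. Leaving out each array in turn gave 0 to 2. In R3 late against early the count was 0, and 3 without the R3 pair. In R7 intermediate against early it was 0, and 1 with the compared arrays only, without the R3 pair or with P4 counted as intermediate, and 0 to 1 when leaving out each array. For the interaction it was 0, and 0 to 1 when leaving out each array. The counts of R7 late against intermediate and of R7 against R3 at each stage were 0 under every alternative run. Some of these fits hold fewer arrays or more probe sets, and otherwise the cause was not tested. The RpS5b rise in R7 was called under 24 of 30 alternatives. The P2 replicates share only a number between the lines (correlation of their deviations -0.01 over 10200 probe sets), and with the replicate block the count of R7 against R3 early was 0. Signals near the floor limit what can be seen of the weak paralogues.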

Other observations

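In the RefSeq order of genes on chromosome arm 3R, RpS5b lies between VhaPPA1-2 and VhaPPA1-1, which encode subunits of the vacuolar proton pump. VhaPPA1-2 lay between 5.90 and 29.0, below the floor. VhaPPA1-1 had 2054, 2131, 1908 in the R7 early arrays, 1668 at P4, 1717, 1634 at the intermediate stage and 1880.1, 1769.6, 1679.9 late. These neighbours were chosen after the RpS5b values were seen and were not tested.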
